A study of Mus musculus with 8 samples.

Results

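The genes described here are Ptprc, which encodes CD45, Itgam, which encodes CD11b, and 5 other leukocyte integrin chains: Itgb2, Itgal, Itga4, Itgb1 and Itgb3. They were chosen by name, because antibodies against CD45 and CD11b were used to collect the cells, and they are 7 of 23091 genes listed in the tables. The cells came from the extraembryonic yolk sac of E9.5 mouse embryos, wild type and of the C57BL/6N strain, bred in an SPF facility and given no treatment. They were stained for CD45 and CD11b, and cells positive for CD45 were sorted singly into the wells of plates for mCEL-Seq2, a single-cell method that counts the 3' ends of transcripts with molecular identifiers. The study asked when the macrophage subsets of the central nervous system are specified.

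Of the 8 libraries, 4 held A1 and A2 cells (the A1/A2 libraries) and 4 held EMP cells (the EMP libraries), in the labels' names. In the field, A1 names an early yolk sac macrophage precursor with Kit, A2 its successor with Cx3cr1, and EMP the erythromyeloid progenitor before both. The labels put A1 and A2 cells in 1 library without a call per well, state that the EMP libraries were not used in the paper, and give the same batch letter to all 8. They do not say that libraries came from separate embryos, so the p-values below measure only the spread between libraries, which may be technical.

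Wells with at least 1000 transcripts were kept, 568 of 768 in A1/A2 libraries and 655 of 768 in EMP libraries, 1223 of 1536 in all. Kept wells summed to 2558197 to 3559612 transcripts per A1/A2 library and 3888853 to 5418136 per EMP library, and had a median of 6153 transcripts in A1/A2 libraries and 20368 in EMP libraries. A well name is a position, and every name recurs in all 8 libraries. Kit averaged 12.2 ± 1.68 CPM in A1/A2 libraries and 55.3 ± 14.9 CPM in EMP libraries (SD, n = 4 each), and Cx3cr1 averaged 110 ± 28.6 CPM in A1/A2 libraries and 3.18 ± 1.42 CPM in EMP libraries. Wells with at least 2 Apoa1 transcripts per 1000, called high-Apoa1 here because Apoa1 is a gene of the yolk sac endoderm, made up 167 of the A1/A2 wells and 284 of the EMP wells. The remaining wells were split by whether they held a transcript of Cx3cr1, of Kit, of both or of neither. Of the A1/A2 wells 121 were Cx3cr1-only, 34 held both, 19 were Kit-only and 227 held neither. Of the EMP wells 4 were Cx3cr1-only, 16 held both, 177 were Kit-only and 174 held neither.

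CD45 is a receptor tyrosine phosphatase carried by nearly all nucleated blood cells, where it sets the activity of Src family kinases. Integrins are pairs of an alpha and a beta chain that hold cells to matrix or to other cells. CD11b (Itgam) and CD11a (Itgal) both pair with the beta 2 chain (Itgb2), a chain confined to leukocytes. The alpha 4 chain (Itga4) pairs with beta 1 (Itgb1) to bind Vcam1 and fibronectin, and beta 1 also pairs with many other alpha chains in most tissues. The beta 3 chain (Itgb3) pairs with the platelet chain alpha IIb (Itga2b), also called CD41 and known as an early marker of blood progenitors, and with alpha V (Itgav).

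The promoters of Ptprc, Itgam, Itga4 and Itgb1 are shown because only these of the 7 genes had a window. In the data, Ptprc and Itgam moved together and Itga4 and Itgb1 did not. Windows of 300 bases, 250 before and 50 after the gene start, came from RefSeq on GRCm38.p6, and 4 of the 7 genes had one. Capitals mark the letters GAGGAA on either strand (TTCCTC where it lies on the other strand), which hold the GGAA core shared by sites of PU.1 and other Ets factors. The Ptprc window lies at chr1:138175256-138175555 on the minus strand, Itgam at chr7:128062390-128062689, Itga4 at chr2:79255176-79255475 and Itgb1 at chr8:128685404-128685703, all 3 on the plus strand.
Ptprc: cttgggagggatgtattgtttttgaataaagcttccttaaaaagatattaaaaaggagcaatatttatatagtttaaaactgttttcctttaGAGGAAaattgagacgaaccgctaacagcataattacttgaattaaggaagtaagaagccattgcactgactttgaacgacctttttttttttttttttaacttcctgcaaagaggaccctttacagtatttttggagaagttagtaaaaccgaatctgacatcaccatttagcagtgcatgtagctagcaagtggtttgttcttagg
Itgam: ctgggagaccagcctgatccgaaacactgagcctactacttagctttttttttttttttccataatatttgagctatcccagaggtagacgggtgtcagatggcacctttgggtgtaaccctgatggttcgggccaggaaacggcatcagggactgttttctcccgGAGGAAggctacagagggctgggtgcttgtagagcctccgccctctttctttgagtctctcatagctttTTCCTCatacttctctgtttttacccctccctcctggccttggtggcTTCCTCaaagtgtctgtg
Itga4: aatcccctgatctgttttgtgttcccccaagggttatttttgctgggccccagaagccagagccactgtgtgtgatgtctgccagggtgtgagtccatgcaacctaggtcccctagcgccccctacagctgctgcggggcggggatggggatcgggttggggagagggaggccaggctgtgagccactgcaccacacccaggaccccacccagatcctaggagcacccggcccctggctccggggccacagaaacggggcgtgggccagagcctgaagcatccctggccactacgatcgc
Itgb1: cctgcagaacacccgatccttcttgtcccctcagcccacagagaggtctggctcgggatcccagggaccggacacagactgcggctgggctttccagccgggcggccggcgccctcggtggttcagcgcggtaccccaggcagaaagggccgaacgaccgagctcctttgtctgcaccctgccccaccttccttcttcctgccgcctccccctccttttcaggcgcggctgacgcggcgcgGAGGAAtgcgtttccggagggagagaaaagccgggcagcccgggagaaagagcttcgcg
The Itgam window held 3 matches, which start at -84, -15 and 33 relative to the gene start. The Ptprc window held 1, at -158, the Itgb1 window held 1, at -9, and these letters are not in the Itga4 window. A second RefSeq window for Ptprc, at chr1:138175077-138175376, held 0. Of 32851 RefSeq windows of the same length, 28.3% held at least 1 match and 0.685% held 3 or more. A match is a description of the sequence, not a binding site.

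CD45 and the beta 2 integrins were several-fold higher in A1/A2 libraries than in EMP libraries, beta 3 was lower, and alpha 4 and beta 1 did not pass the test. All kept wells of a library were summed, and levels are in CPM, counts per 1e6 of the TMM-scaled sum. Of the 7 genes, 4 were higher in A1/A2 libraries, against 17.3% of 11144 genes tested, and 1 was lower, against 15.4% (edgeR's quasi-likelihood test, Benjamini-Hochberg adjusted p under 0.05; 32.8% called in either direction). The median log2 difference of the 7 was 1.92, beside -0.02 over all genes tested. Ptprc and Itgam code for the proteins that were stained, so their levels and the sort are not independent. In such sums, fewer cells of a type and less RNA per cell cannot be told apart.

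Ptprc stood at 92.0, 75.1, 84.1 and 95.7 CPM in A1/A2 libraries 1 to 4, against 15.98, 6.61, 11.1 and 5.27 CPM in EMP libraries 1 to 4. Its lowest A1/A2 library lay far above its highest EMP library, and the log2 difference was 3.14 ± 0.26 (SE, adjusted p = 1.78e-05), an 8.79-fold higher level. In all, 1069 Ptprc transcripts fell in 240 of 568 A1/A2 wells and 190 in 83 of 655 EMP wells. Over wells of all depths, the CD45 message was thus found in a minority of wells in both kinds of library. The sort took cells with the protein, but these counts depend on the depth and class of the wells. The median was 6153 transcripts in A1/A2 wells and 20368 in EMP wells. Ptprc was found in 90 of 121 Cx3cr1-only A1/A2 wells (median 29527 transcripts) and 43 of 177 EMP Kit-only wells (median 24088).

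Itgam, the alpha chain of the receptor Mac-1, stood at 42.5, 33.8, 48.1 and 39.1 CPM in A1/A2 libraries and at 5.05, 4.47, 5.82 and 3.26 CPM in EMP libraries. Groups did not overlap, with a log2 difference of 3.10 ± 0.19 (adjusted p = 1.01e-06). Its partner Itgb2 stood at 56.2, 46.5, 74.2 and 80.8 CPM in A1/A2 libraries and at 15.6, 13.6, 21.8 and 16.8 CPM in EMP libraries. The beta 2 chain was higher by 1.92 ± 0.20 on the log2 scale (adjusted p = 4.16e-05), also with no overlap. Itgal, the alpha chain of LFA-1, stood at 24.8, 26.6, 41.5 and 29.1 CPM in A1/A2 libraries and at 4.63, 0.777, 4.88 and 3.26 CPM in EMP libraries. It was higher by 3.16 ± 0.35 (adjusted p = 9.97e-05) with no overlap, and the EMP side rests on 65 transcripts in 38 wells, against 374 in 153 A1/A2 wells.

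Itga4 stood at 36.2, 25.5, 42.6 and 34.0 CPM in A1/A2 libraries and at 30.3, 15.4, 34.6 and 34.9 CPM in EMP libraries. Both sets of libraries overlapped, and the log2 difference of 0.26 ± 0.24 did not pass the test (adjusted p = 0.433). Itgb1 stood at 183, 202, 159 and 199 CPM in A1/A2 libraries and at 206, 202, 194 and 186 CPM in EMP libraries, again with overlap. Its log2 difference was -0.08 ± 0.09 (adjusted p = 0.517), so the shared beta 1 chain differed by less than the spread between libraries. Itgb3 stood at 26.3, 10.53, 19.5 and 21.7 CPM in A1/A2 libraries and at 30.3, 30.9, 42.6 and 31.8 CPM in EMP libraries, with no overlap. It fell by 0.82 ± 0.23 on the log2 scale (adjusted p = 0.0174), but without EMP library 3, its highest, the value was -0.69 ± 0.24 (adjusted p = 0.0516).

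**Figure D1:**
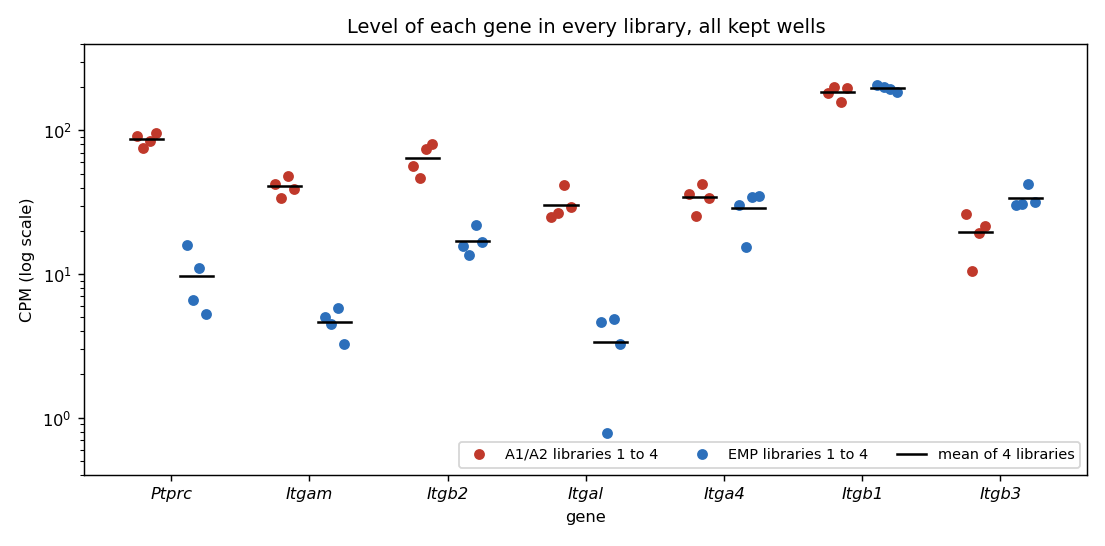
Level of each of the 7 genes in CPM (log axis) in every library, A1/A2 in red on the left of each pair and EMP in blue on the right; bars are means of 4 libraries. Ptprc, Itgam, Itgb2 and Itgal separate upward, Itgb3 separates downward, and Itga4 and Itgb1 overlap.

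Markers of other cells moved with this comparison. Summed levels of 8 macrophage markers were 649 to 892 CPM in A1/A2 libraries and 47.7 to 85.4 CPM in EMP libraries, and all 8 were higher. Those of 8 endothelial markers were 36.7 to 52.9 CPM in A1/A2 libraries and 166 to 358 CPM in EMP libraries, and all 8 were lower. Of the megakaryocyte list, which holds Itga2b, 2 of 4 tested were lower (23.8 to 46.0 CPM against 67.7 to 155 CPM), and of 10 endoderm markers 6 were lower (7537 to 12890 CPM against 13340 to 20274 CPM). Neutrophil and monocyte markers were higher for 4 of 4 tested (134 to 266 CPM against 34.2 to 58.6 CPM). Lymphoid markers were higher for 2 of 2 tested (33.8 to 73.9 CPM against 1.76 to 7.32 CPM). Ly6g, Lyz2 and Trac are not among the 23091 genes listed, so no level is known for them. Erythroid and mesenchymal lists had no calls. The part of all these markers in the differences of the 7 genes was not tested. With high-Apoa1 wells left out, the log2 differences were 2.67 ± 0.32 for Ptprc, 2.69 ± 0.19 for Itgam, 1.36 ± 0.16 for Itgb2, 2.75 ± 0.34 for Itgal and -1.43 ± 0.19 for Itgb3, all with an adjusted p under 0.05, and Itga4 turned to -0.23 ± 0.14 (adjusted p = 0.212). With wells above 3 times their library's median depth left out, they were 3.87 ± 0.29 for Ptprc, 3.96 ± 0.31 for Itgam, 2.76 ± 0.39 for Itgb2, 4.57 ± 0.74 for Itgal and -1.44 ± 0.31 for Itgb3, again all called.

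Whether a well holds a transcript depends on its depth, so each well was thinned at random to 1000 transcripts, which no kept well was too shallow for. At that depth 3 of the 7 genes, Ptprc, Itgam and Itgb2, had shares of wells that were higher in every A1/A2 library than in any EMP library, against 4.29% of 8664 genes (2.92% lower in every library, 7.21% in either direction). Ptprc was found in 8.39 ± 1.55% of A1/A2 wells and 0.608 ± 0.465% of EMP wells (mean ± SD of 4 libraries; exact permutation p = 0.0286, two-sided, the smallest that 4 against 4 libraries allow). Itgam was found in 4.62 ± 2.01% of A1/A2 wells and 0.325 ± 0.376% of EMP wells, and Itgb2 in 10.9 ± 2.90% of A1/A2 wells and 2.49 ± 1.35% of EMP wells, with the same exact p. The other 4 shares overlapped. They were 2.61 ± 2.05% of A1/A2 wells and 1.13 ± 1.16% of EMP wells for Itgal, 5.00 ± 1.47% and 4.18 ± 1.24% for Itga4, 17.1 ± 1.87% and 16.8 ± 3.06% for Itgb1, and 1.98 ± 0.531% and 3.25 ± 1.26% for Itgb3 in the same order (exact permutation p = 0.286, 0.457, 0.914 and 0.143).

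As a measure of background, the share in high-Apoa1 wells at the same depth was 4.19% of 167 wells in A1/A2 libraries and 0.704% of 284 wells in EMP libraries for Ptprc. The EMP share of Ptprc over all wells, 0.608%, includes these 284 wells, and only 2 of the 284 held Ptprc. It was thus not told apart from that background at 1000 transcripts. High-Apoa1 wells came from the same CD45 sort and are not known to lack Ptprc. For Itgam the share was 2.99% of A1/A2 and 0 of 284 EMP high-Apoa1 wells, a count that allows a share of up to 1.06%. For Itgb2 it was 5.99% of A1/A2 and 1.76% of EMP high-Apoa1 wells. For Itgb1 it was 17.4% and 13.4%, which is not a background, since most cell types express that gene.

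At 5000 transcripts per well, which 306 A1/A2 wells and 505 EMP wells reached, 5 of the 7 shares did not overlap between the groups, the 3 above and also Itgal and Itgb3. Of 11398 genes found in 10 or more wells at this depth, 5.42% were higher in every A1/A2 library and 7.6% lower, 13.0% in either direction. Ptprc was found in 31.8 ± 6.64% of A1/A2 wells and 3.75 ± 0.485% of EMP wells, Itgam in 17.8 ± 3.36% of A1/A2 wells and 2.91 ± 0.738% of EMP wells, and Itgb2 in 27.6 ± 7.21% of A1/A2 wells and 8.70 ± 2.90% of EMP wells. Itgal was found in 13.6 ± 5.66% of A1/A2 wells and 1.499 ± 1.82% of EMP wells. Itgb3 went the other way, with 6.65 ± 2.93% of A1/A2 wells and 14.3 ± 4.36% of EMP wells. The shares of Itga4, 12.7 ± 5.91% of A1/A2 wells and 14.7 ± 4.39% of EMP wells, and of Itgb1, 57.4 ± 3.55% of A1/A2 wells and 53.6 ± 1.80% of EMP wells, overlapped. Without thinning Ptprc was found in 42.7 ± 4.38% of A1/A2 wells and 12.6 ± 2.70% of EMP wells, and Itgb1 in 61.7 ± 6.26% of A1/A2 wells and 77.3 ± 2.98% of EMP wells, a difference of -15.6 points, beside 0.28 points at 1000 transcripts (exact permutation p = 0.914). In high-Apoa1 wells at 5000 transcripts, Ptprc was found in 18 of 100 A1/A2 wells and 3 of 241 EMP wells (1.24%), Itgam in 7 and 5 (2.07%), Itgb2 in 10 and 3 (1.24%), and Itgal in 8 and 2 (0.830%). Itgb1, which most cell types express, was found in 58 of these A1/A2 wells and 117 of these EMP wells (48.5%), so they give no background for it, and Itgb3 was found in 5 and 16 (6.64%) and Itga4 in 3 and 12 (4.98%).

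The CD45 message was found in a minority of EMP wells even at high depth. Among wells with 20000 or more transcripts Ptprc was found in 81.1 ± 6.48% of A1/A2 wells and 21.3 ± 8.19% of EMP wells, and Itgb1 in 98.7 ± 1.51% of A1/A2 wells and 99.3 ± 0.772% of EMP wells. With high-Apoa1 wells left out, 114 of 118 such A1/A2 wells held Ptprc, against 47 of 146 EMP wells. Itgam was found in 102 of these A1/A2 wells and 28 of these EMP wells, Itgb2 in 113 and 89, and Itgal in 85 and 21. Itga4 was found in 88 of the 118 A1/A2 wells and 108 of the 146 EMP wells, and Itgb3 in 61 and 99. Every well of that depth, 185 A1/A2 and 329 EMP wells with high-Apoa1 wells counted, held at least 1 of the 7 genes.

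**Figure D2:**
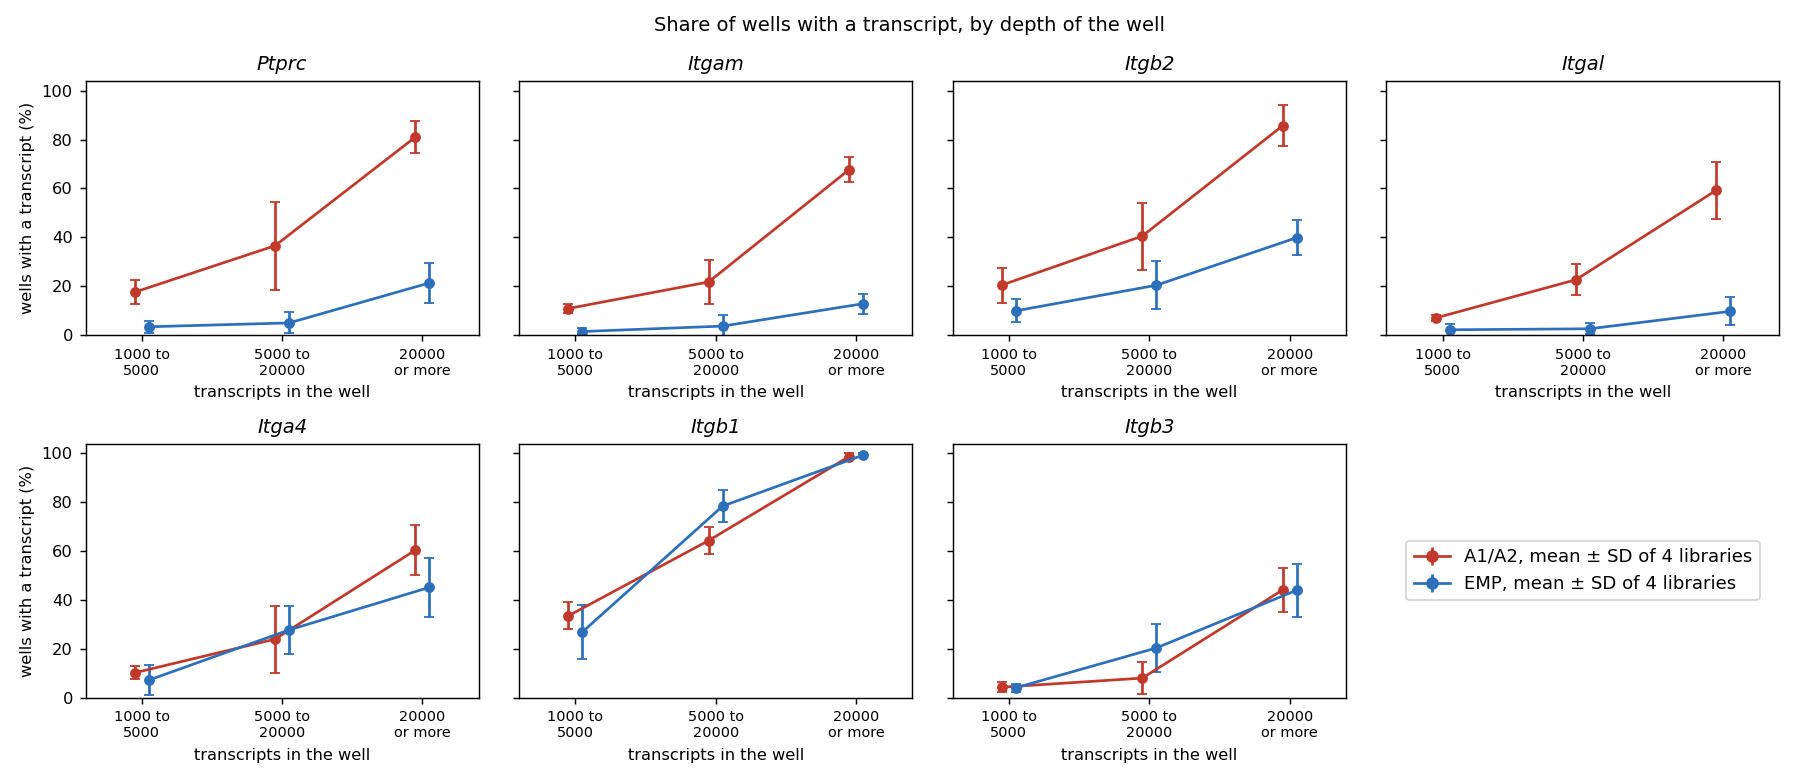
Share of wells with at least 1 transcript (percent, no thinning) against the depth of the well, for each gene, A1/A2 in red and EMP in blue; points are means of 4 libraries and bars SD. Ptprc reached 81.1% of A1/A2 and 21.3% of EMP wells in the deepest bin, while Itgb1 reached 98.7% of A1/A2 and 99.3% of EMP wells.

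By class of well, the 7 genes formed different orders. In sums of at least 5 wells scaled together, Ptprc averaged 139 ± 40.4 CPM in A1/A2 wells with neither transcript, 117 ± 20.4 CPM in Cx3cr1-only wells, 99.0 ± 30.9 CPM in wells with both and 64.1 ± 39.3 CPM in Kit-only wells (n = 3 libraries, the others 4), then 31.5 ± 6.27 CPM in A1/A2 high-Apoa1 wells. In EMP wells it averaged 15.8 ± 10.2 CPM in Kit-only wells, 8.90 ± 4.70 CPM in wells with neither and 4.18 ± 0.859 CPM in high-Apoa1 wells. Neighbours in the first 4 places of that order differed by less than the larger of their SDs, and every library of those 4 classes lay above every library of the 3 EMP classes. The 16 EMP wells with both Kit and Cx3cr1 gave sums in 2 libraries, 55.0 and 58.8 CPM of Ptprc and 33.8 and 25.9 CPM of Itgam, above every EMP Kit-only library. Of those 16 wells 8 held Ptprc. Together the 16 held 39 Ptprc and 19 Itgam transcripts, 84.6% and 94.7% of them in the top 5 wells. At 5000 transcripts per well the shares did not show that order. Ptprc was found in 1 of 15 such wells (6.67%) and in 8.67% of 173 EMP Kit-only wells. Itgam was found in 0 of the 15 and in 5.78% of the 173. With only 15 wells these shares cannot tell the classes apart.

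Itgb3 had another order. It averaged 75.5 ± 15.9 CPM in EMP Kit-only wells and 48.03 ± 28.7 CPM in EMP wells with neither transcript, and 37.1 ± 21.5 CPM in A1/A2 wells with both, 15.9 ± 13.1 CPM in those with neither and 15.2 ± 3.78 CPM in Cx3cr1-only wells. The 3 sums of A1/A2 Kit-only wells were 14.9, 67.2 and 228 CPM, which spans the whole of that order. Itga4 averaged 61.9 ± 9.84 CPM in EMP Kit-only wells, 23.6 ± 11.2 CPM in EMP wells with neither and 41.1 ± 7.71 CPM in A1/A2 Cx3cr1-only wells. Itgb1 stayed between 140 and 238 CPM in the means of all 8 classes with 3 or 4 libraries, the narrowest range of the 7 genes in fold.

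**Figure D3:**
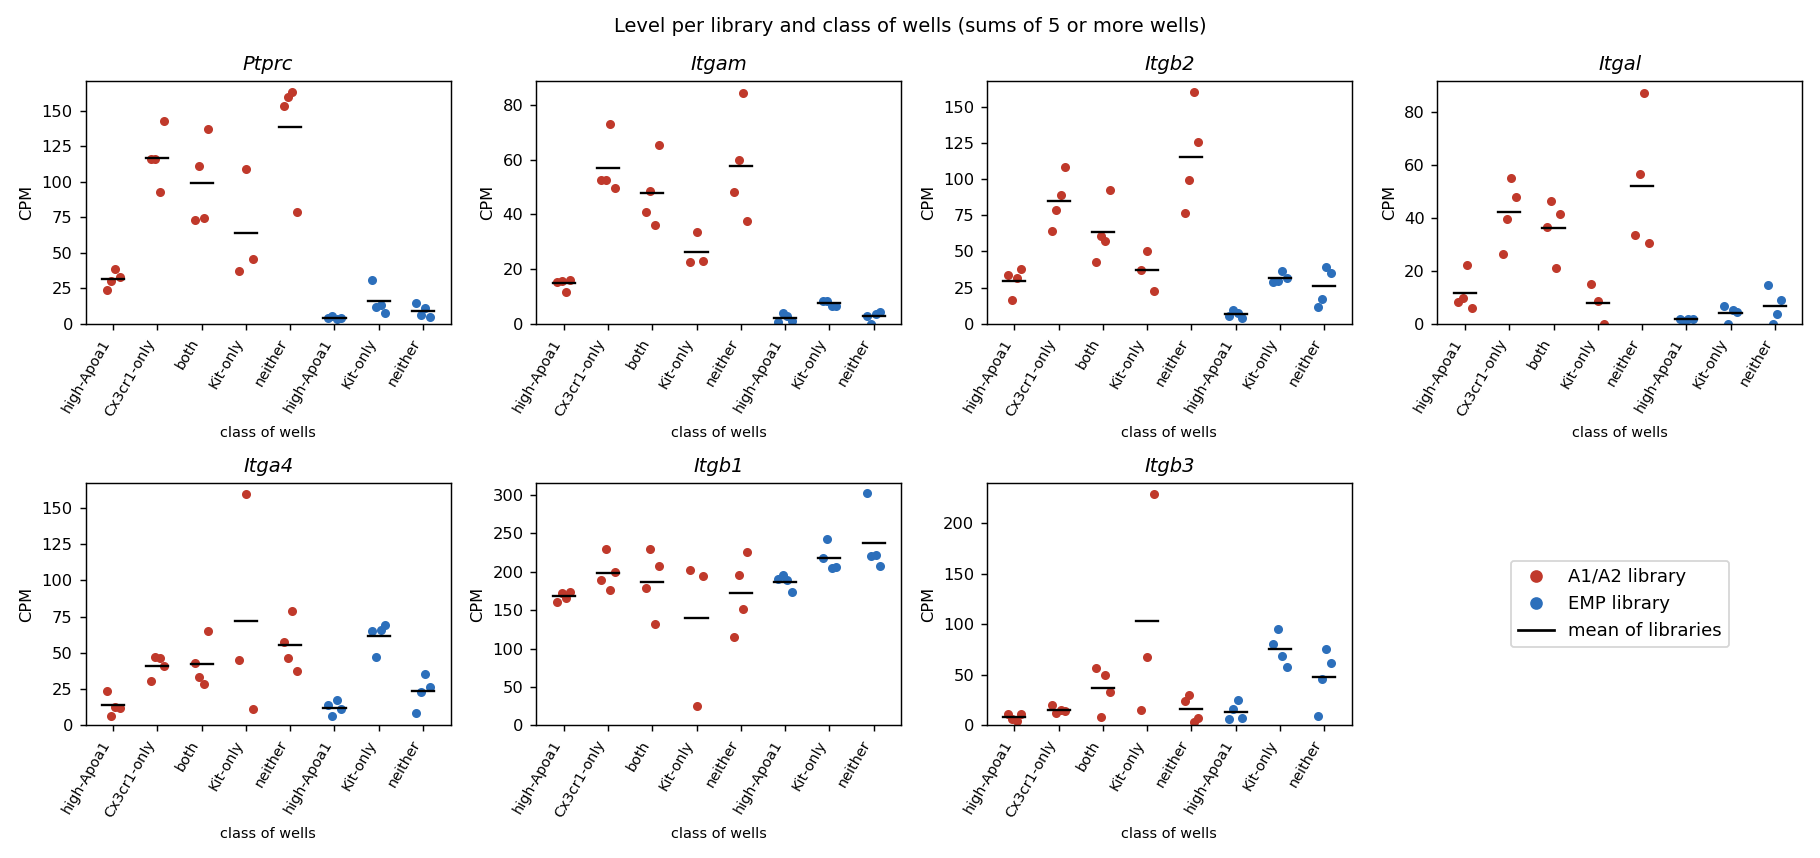
Level in CPM of each gene per library and class of wells, for sums of 5 or more wells; A1/A2 libraries in red, EMP libraries in blue, bars are means. Ptprc averaged 117 CPM in A1/A2 Cx3cr1-only wells and 15.8 CPM in EMP Kit-only wells, and Itgb3 15.2 CPM and 75.5 CPM in the same classes.

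Within A1/A2 libraries, Cx3cr1-only wells were set against Kit-only wells to ask whether the genes differ between wells of the A2 and A1 kind. The 121 Cx3cr1-only wells had a median of 29527 transcripts and the 19 Kit-only wells, 3 to 6 per library, a median of 7490. Of 6037 genes tested 1.57% were called, 0.928% higher and 0.646% lower in Cx3cr1-only wells, and 1 of the 7, Itgb3, was among the lower. Itgb3 stood at 23.2, 13.4, 16.4 and 15.2 CPM in Cx3cr1-only wells of libraries 1 to 4, against 36.2, 19.2, 92.6 and 309 CPM in Kit-only wells, and the log2 difference was -2.60 ± 0.55 (edgeR adjusted p = 0.00168). The Kit-only side held 31 Itgb3 transcripts in 6 of 19 wells, 20 of them in 1 well. Without library 4 the difference was -1.56 ± 0.70 (adjusted p = 0.510), and without library 1 the gene was too low to be tested.

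Ptprc did not differ between these wells beyond its spread. It stood at 131, 133, 103 and 157 CPM in Cx3cr1-only wells and at 290, 48.02, 151 and 61.9 CPM in Kit-only wells, a log2 difference of 0.19 ± 0.37 (edgeR adjusted p = 0.952). Itgam had 59.3, 59.6, 80.9 and 54.4 CPM in Cx3cr1-only wells and 109, 28.8, 46.3 and 30.9 CPM in Kit-only wells (0.54 ± 0.51, adjusted p = 0.838). Itgb2 differed by 0.62 ± 0.44 (adjusted p = 0.745), Itgb1 by 0.24 ± 0.31 (adjusted p = 0.902) and Itga4 by -1.11 ± 0.46 (adjusted p = 0.332). With so few Kit-only wells these intervals are wide, and none of these values shows that the classes are alike.

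Itgal had the largest of the differences that did not pass. It stood at 29.7, 45.0, 61.0 and 52.6 CPM in Cx3cr1-only wells and at 0, 19.2, 11.6 and 0 CPM in Kit-only wells, with no overlap, and the log2 difference was 2.25 ± 0.79 (edgeR adjusted p = 0.185). It rests on 180 transcripts in 63 of 121 Cx3cr1-only wells and 3 transcripts in 2 of 19 Kit-only wells. With high-Apoa1 wells kept in the classes, 4 of the 7 were higher in Cx3cr1-only wells, against 3.3% of 7613 genes, Itgal by 2.50 ± 0.56, Itgam by 1.47 ± 0.43, Ptprc by 1.17 ± 0.33 and Itgb2 by 1.11 ± 0.32 (adjusted p = 0.00833, 0.0425, 0.0350 and 0.0405), and Itgb3 was no longer called (-1.51 ± 0.54, adjusted p = 0.110). Macrophage markers summed to 992 to 1557 CPM in Cx3cr1-only wells and 134 to 731 CPM in Kit-only wells, megakaryocyte markers to 25.5 to 40.6 CPM and 14.9 to 366 CPM, and erythroid markers to 121 to 1452 CPM and 1269 to 94298 CPM (4 and 3 libraries with 5 or more such wells). Their part in these values was not tested.

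Kit-only wells could also be compared across the libraries, 19 in the A1/A2 and 177 in EMP libraries. Ptprc stood at 296, 48.1, 152 and 62.3 CPM in A1/A2 Kit-only wells, against 34.8, 13.5, 14.7 and 8.78 CPM in EMP Kit-only wells. Itgam stood at 111, 28.9, 46.7 and 31.1 CPM in A1/A2 Kit-only wells, against 9.64, 9.46, 7.36 and 7.31 CPM in EMP Kit-only wells. The A1/A2 values rest on few transcripts. Libraries 1 to 4 held 8, 5, 13 and 4 of Ptprc and 3, 3, 4 and 2 of Itgam, and library 1 had only 3 such wells. Neither pair of groups overlapped, yet the log2 differences of 2.56 ± 0.69 for Ptprc (edgeR adjusted p = 0.120) and 2.35 ± 0.63 for Itgam (adjusted p = 0.0538) missed the threshold. Macrophage markers summed to 134 to 731 CPM in A1/A2 Kit-only wells (3 libraries) and 36.7 to 64.5 CPM in EMP Kit-only wells, endothelial markers to 50.4 to 114 CPM and 494 to 571 CPM, and erythroid markers to 1269 to 94298 CPM and 379 to 5378 CPM. Their part in these differences was not tested either.

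Of 5839 genes 1.58% were called in that comparison, 1.03% higher and 0.548% lower, and of the 6 members tested 0 were; 749 genes had an unadjusted p under 0.05. DESeq2 called 1 member, Ptprc, at 2.82 ± 0.63 (adjusted p = 9.70e-04), and 2.32% of 5823 genes as higher, and with A1/A2 library 2 left out edgeR called both Ptprc at 2.88 ± 0.63 (adjusted p = 0.0187) and Itgam at 2.53 ± 0.71 (adjusted p = 0.0263), beside 1.86% of 7572 genes. Itgb2 had 148, 48.1, 70.04 and 31.1 CPM in A1/A2 Kit-only wells and 32.6, 33.8, 40.8 and 36.6 CPM in EMP Kit-only wells, overlapping, with a log2 difference of 0.75 ± 0.42 (adjusted p = 0.475). Itga4 (0.62 ± 0.43, adjusted p = 0.591), Itgb1 (-0.32 ± 0.33, adjusted p = 0.746) and Itgb3 (0.40 ± 0.59, adjusted p = 0.844) were not called either. Itgal, with 3 transcripts in A1/A2 and 26 in EMP Kit-only wells, was too low to be tested.

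Within EMP libraries, alpha 4 was higher in Kit-only wells than in wells with neither transcript. Of 6629 genes 5.99% were higher and 10.4% lower in Kit-only wells (16.4% in either direction), and of the 4 members tested 1, Itga4, was. It stood at 61.5, 45.0, 62.2 and 66.8 CPM in Kit-only wells, against 8.47, 23.1, 34.6 and 26.2 CPM in wells with neither, with no overlap. The log2 difference was 1.43 ± 0.29 (edgeR adjusted p = 2.54e-04). The classes differ in depth, a median of 24088 transcripts in Kit-only wells and 4199 in wells with neither, and with wells thinned to 5000 before they were classed the difference was 0.91 ± 0.44 (adjusted p = 0.314).

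Itgb3 stood at 76.3, 90.0, 64.4 and 55.9 CPM in EMP Kit-only wells and at 8.47, 46.1, 72.8 and 61.2 CPM in wells with neither, overlapping (0.66 ± 0.43, adjusted p = 0.388). Itgb2 differed by 0.26 ± 0.32 (adjusted p = 0.647) and Itgb1 by -0.19 ± 0.12 (adjusted p = 0.308). Ptprc, with 91 transcripts in Kit-only wells and 10 in wells with neither, Itgam, with 41 and 3, and Itgal, with 26 and 8, were too low to be tested. At 5000 transcripts per well, 31.2% of 173 EMP Kit-only wells and 4.11% of 73 EMP wells with neither held Itga4, and 29.5% and 4.11% held Itgb3. For Ptprc these shares were 8.67% of Kit-only wells and 0 of 73 wells with neither, a count that allows up to 4.11%. Endothelial markers summed to 494 to 571 CPM in Kit-only wells and 627 to 1024 CPM in wells with neither, and megakaryocyte markers to 153 to 186 CPM and 55.7 to 197 CPM. Erythroid markers summed to 379 to 5378 CPM in Kit-only wells and 2343 to 58609 CPM in wells with neither, endoderm markers to 2986 to 4515 CPM and 6237 to 8397 CPM, and macrophage markers to 36.7 to 64.5 CPM and 93.0 to 446 CPM. Their part in these differences was not tested.

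High-Apoa1 wells carried less of each of the 7 genes than the other wells in the fits of both kinds of library. By single library there were exceptions. Itgb1 in A1/A2 library 3 stood at 160 CPM in high-Apoa1 wells and 155 CPM in the others. Itgal in EMP library 2 stood at 0.992 CPM in high-Apoa1 wells, on 4 transcripts, and 0 CPM in the others. In the A1/A2 libraries 7 of 7 were lower, against 29.2% of 10516 genes (55.0% called in either direction), and in EMP libraries 7 of 7, against 28.1% (59.2% in either direction). The median log2 difference of the 7 was -1.94 in A1/A2 libraries and -2.11 in EMP libraries, beside -0.08 and -0.003 over all genes tested. The log2 differences lay between -2.38 and -1.55 for 6 of the genes and at -0.30 for beta 1 in both kinds of library.

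Ptprc stood at 22.6, 29.8, 37.6 and 32.1 CPM in high-Apoa1 wells of A1/A2 libraries 1 to 4, against 119, 123, 104.8 and 138 CPM in the other wells (log2 difference -1.99 ± 0.17, edgeR adjusted p = 7.65e-09). In the EMP libraries it stood at 4.25, 5.21, 3.23 and 3.91 CPM in high-Apoa1 wells, against 31.5, 12.5, 20.9 and 7.22 CPM in the other wells (-2.11 ± 0.28, adjusted p = 1.94e-06). Neither pair overlapped, and the high-Apoa1 wells of each A1/A2 library had more Ptprc than the other wells of 3 of the 4 EMP libraries. Itgam averaged 14.3 ± 1.99 CPM in high-Apoa1 wells and 56.5 ± 5.54 CPM in the other wells of the A1/A2 libraries, and 2.09 ± 1.44 CPM in high-Apoa1 wells and 8.51 ± 2.02 CPM in the other wells of the EMP libraries. Itgb2 averaged 28.9 ± 9.06 CPM in high-Apoa1 wells and 87.0 ± 19.2 CPM in the other wells of the A1/A2 libraries, and 6.32 ± 2.34 CPM against 33.5 ± 4.61 CPM in EMP libraries. All 3 genes were lower in the high-Apoa1 wells of each of the 8 libraries.

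Itga4 averaged 13.2 ± 6.81 CPM in high-Apoa1 wells and 48.04 ± 6.32 CPM in the other wells of the A1/A2 libraries (-2.01 ± 0.27, edgeR adjusted p = 8.82e-06), and 12.2 ± 4.55 CPM in high-Apoa1 wells and 56.1 ± 6.15 CPM in the other wells of the EMP libraries (-2.20 ± 0.22, adjusted p = 2.21e-07). Itgb3 averaged 8.25 ± 3.31 CPM in high-Apoa1 wells and 25.5 ± 7.498 CPM in the other wells of the A1/A2 libraries (-1.55 ± 0.36, adjusted p = 0.00247), and 13.6 ± 8.68 CPM in high-Apoa1 wells and 70.1 ± 13.4 CPM in the other wells of the EMP libraries (-2.38 ± 0.24, adjusted p = 1.17e-06). Itgal differed by -2.04 ± 0.27 in the A1/A2 and -1.69 ± 0.44 in EMP libraries (adjusted p = 1.51e-06 and 0.00239). Itgb1 stood at 153, 169, 160 and 169 CPM in high-Apoa1 wells and at 192.3, 236, 155 and 219 CPM in the other wells of the A1/A2 libraries, which overlap through library 3. Its small decrease passed the test in both kinds of library (-0.30 ± 0.08, adjusted p = 0.00338 in the A1/A2, and -0.30 ± 0.07, adjusted p = 0.00141 in EMP libraries), but not in A1/A2 libraries without library 2 (-0.17 ± 0.09, adjusted p = 0.152).

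The size of these decreases was not shown to differ between the kinds of library. The difference of the differences, A1/A2 minus EMP, was called for 4.14% of 10516 genes (1.15% above 0 and 2.99% below) and for 0 of the 7 by edgeR, where 1771 genes had an unadjusted p under 0.05, and DESeq2 also called 0 of the 7. It was 0.71 ± 0.29 for Itgb2 (adjusted p = 0.190) and 0.83 ± 0.48 for Itgb3 (adjusted p = 0.419). Without A1/A2 library 2 it was 1.09 ± 0.28 for Itgb2 (adjusted p = 0.0402), and without EMP library 3 it was 1.35 ± 0.35 for Itgb3 (adjusted p = 0.0299). With DESeq2 size factors 155 of 355 called genes were higher, against 121 of 435 with TMM. Endoderm markers summed to 19850 to 22948 CPM in high-Apoa1 wells of the A1/A2 libraries and 21242 to 25860 CPM in those of the EMP libraries.

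**Figure D4:**
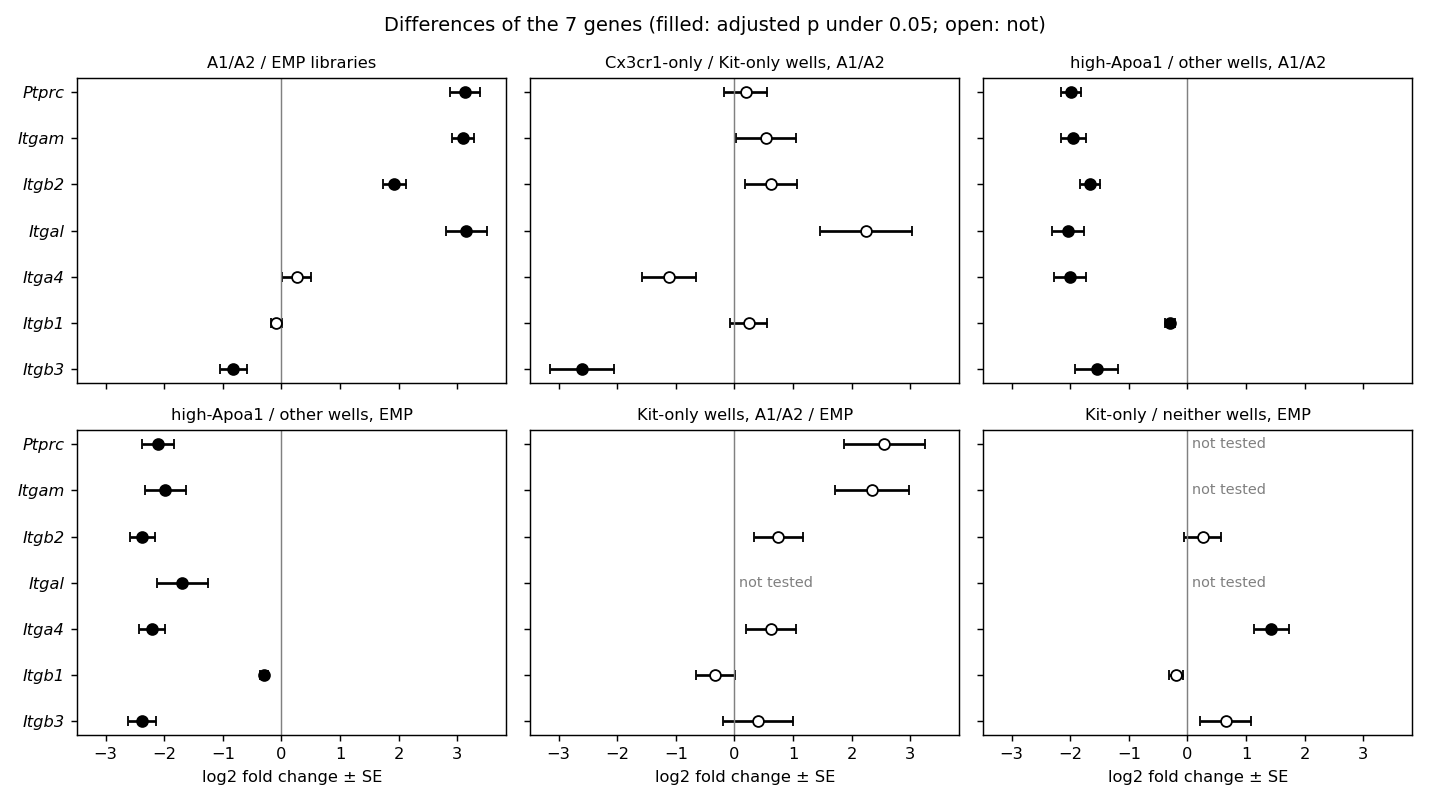
Log2 fold change and SE of the 7 genes in 6 comparisons, each panel named with the group on top of the ratio first; filled points have an adjusted p under 0.05 and open points do not. In the comparison of libraries Ptprc is at 3.14 and Itgb3 at -0.82, and in both panels of high-Apoa1 wells all 7 points lie left of 0.

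In single wells of the A1/A2 libraries Ptprc, Itgam and Itgb2 were found more often in wells that held another of them. Each well was thinned to 5000 transcripts, and the share of wells with one gene was taken among wells with and without another, as a description with no test, since wells of a library are not replicates and a gene's cells share a library and a depth. In the A1/A2 libraries Itgam was found in 30.4 ± 4.43% of wells with Ptprc and 11.8 ± 2.80% of wells without it (mean ± SD of 4 libraries, 30 of 97 wells in all), higher in 4 of 4 libraries. Itgb2 was found in 43.5 ± 13.1% of wells with Ptprc and 20.6 ± 5.48% of wells without, again in 4 of 4. Seen from the other side, Ptprc was found in 54.6 ± 10.2% of wells with Itgam, 30 of 54, and 26.9 ± 5.71% of wells without it. In the EMP libraries few wells held these genes: Itgb2 was found in 1 of 19 wells with Ptprc (5.26%) and 8.64% of wells without it, and Itgam in 2 of 19 (10.5%) and 2.67%. So at this depth a well with the CD11b message did not always show the CD45 message.

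Partner chains of 1 receptor occurred together in most A1/A2 libraries for the beta 2 pairs. Of 505 EMP wells only 43 held Itgb2 and 15 held Itgam, too few to compare the kinds of library. The EMP shares of these pairs are taken among wells with and without Itgb2, the A1/A2 shares among wells with and without the alpha chain. Itgb2 was found in 39.8 ± 11.95% of A1/A2 wells with its partner Itgam and 25.2 ± 7.18% of wells without it, and in 38.4 ± 14.4% of wells with its partner Itgal and 25.4 ± 7.28% of wells without it, higher in 3 of 4 libraries in each case. In the EMP libraries Itgam was found in 4.29 ± 5.08% of wells with Itgb2 and 2.72 ± 1.13% of wells without it (higher in 2 of 4), and Itgal in 2.27 ± 4.55% and 1.48 ± 1.99% (1 of 4). Itga4 wells of the A1/A2 libraries held Itgam in 46.4 ± 14.5% and wells without Itga4 in 13.4 ± 5.70% (18 of 38 wells, 4 of 4 libraries). Its partner Itgb1 was found in 67.7 ± 15.8% of wells with and 56.2 ± 4.56% of wells without Itga4 (3 of 4 libraries). In the EMP libraries Itgb1 was found in 62.9 ± 7.89% of wells with Itga4 and 51.9 ± 2.67% of wells without it (4 of 4 libraries).

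Beta 3 was found more often in EMP wells with Itga2b and in those with Itga4. In the EMP libraries it was found in 29.9 ± 10.3% of wells with its partner chain Itga2b and 11.7 ± 3.36% of wells without it (22 of 74 wells, 4 of 4 libraries), and in 23.9 ± 8.85% of wells with Itga4 and 12.8 ± 4.79% of wells without it (4 of 4). With its other partner Itgav it was found in 10.53 ± 13.2% of wells and without it in 15.2 ± 3.63% (1 of 4), and in A1/A2 libraries in 2.78 ± 5.56% and 7.40 ± 3.29% (1 of 4). EMP wells with Itgb3 held 1.53 ± 0.871 transcripts of the megakaryocyte markers on average and wells without it 0.346 ± 0.0923. EMP wells with Itga4 held 0.967 ± 0.282 and wells without it 0.440 ± 0.131, higher in 4 of 4 libraries each. This was not particular to these genes: EMP wells with Itgb2 held 1.05 ± 0.298 and wells without it 0.462 ± 0.105, also in 4 of 4.

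Macrophage, endoderm and endothelial markers also differed between wells with and without a member. A1/A2 wells with Ptprc held 7.35 ± 2.63 transcripts of the macrophage markers on average and wells without it 3.15 ± 0.879 (4 of 4 libraries), and 26.0 ± 8.15 transcripts of the endoderm markers against 53.0 ± 6.76 (lower in 4 of 4). A1/A2 wells with Itga4 held 10.6 ± 3.02 macrophage transcripts and wells without it 3.41 ± 0.818. EMP wells with Itgb1 held 3.09 ± 0.660 endothelial transcripts and wells without it 1.32 ± 0.520, and EMP wells with Itgb2 held 0.979 ± 0.586 macrophage transcripts and wells without it 0.305 ± 0.0929. Only 2 of 505 EMP wells held both Ptprc and Itgam, of 19 with Ptprc and 15 with Itgam. Of 306 A1/A2 wells 58 held none of the 7 genes and 7 held 6, and of 505 EMP wells 167 held none and none held more than 4.

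**Figure D5:**
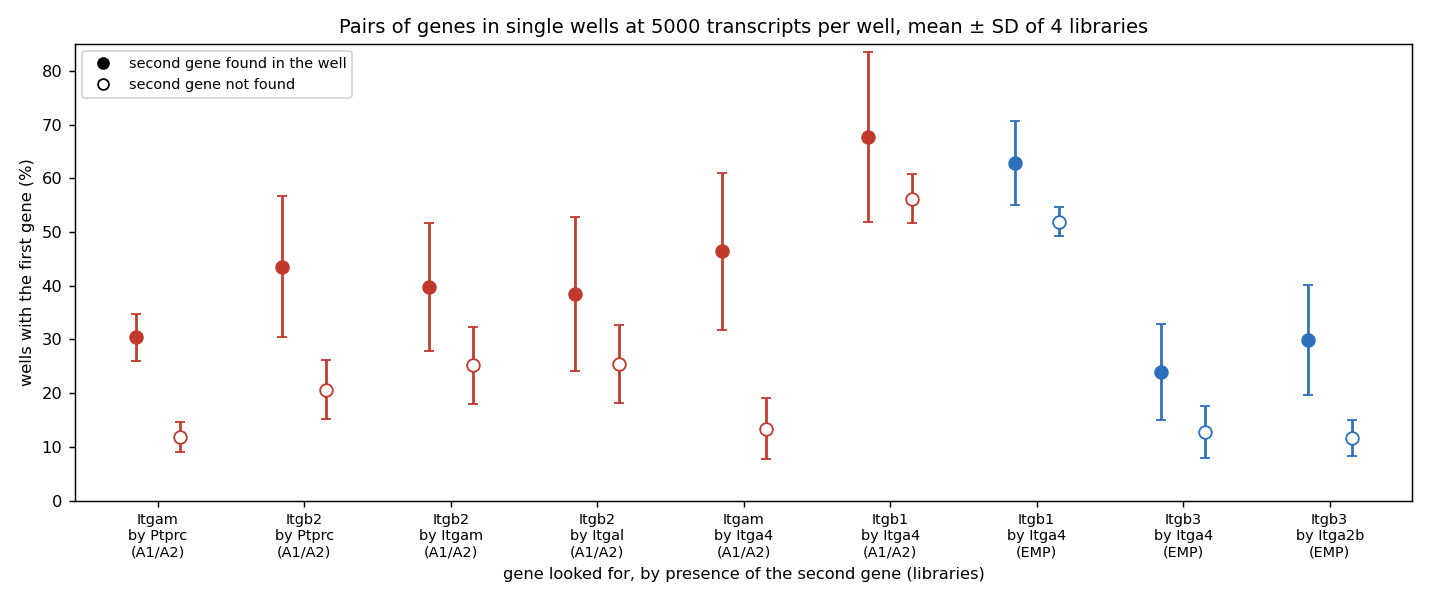
Share of wells (percent) with the first-named gene among wells with (filled) and without (open) the second-named gene, after thinning to 5000 transcripts; points are means of 4 libraries and bars SD, A1/A2 in red and EMP in blue. Itgam is at 30.4% with and 11.8% without Ptprc, and Itgb3 at 29.9% with and 11.7% without Itga2b.

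The other genes of the integrin and CD45 pathways moved both ways. Of 58 genes in the list 37 were tested between the libraries, and 12 were higher and 10 lower in A1/A2 libraries. Over all genes tested, 17.3% were higher and 15.4% lower. The median log2 difference of the list was -0.11, beside -0.02 over all genes. Of 12 genes that activate integrins inside the cell 6 were higher and 1 lower, among them Fyb, an adaptor that links T cell receptor signals to integrins (2.85 ± 0.21 on the log2 scale). Of 9 partners of CD45 and Src family kinases 4 were higher and 1 lower.

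Of 8 ligands and counter-receptors tested 0 were higher and 6 lower in A1/A2 libraries, beside 15.4% of all genes lower, and Icam1 and Icam2 were not called. Among the 6 was Fn1, the matrix protein fibronectin, at 171, 239, 194 and 191 CPM in A1/A2 libraries and 310, 341, 316 and 351 CPM in EMP libraries (-0.73 ± 0.11, edgeR adjusted p = 4.38e-04). Of 6 other alpha chains 1 was higher and 2 lower, and of 2 other beta chains 1 was higher, Itgb5 (0.95 ± 0.23, adjusted p = 0.00787). Itga2b, the partner of beta 3, stood at 7.86, 9.70, 15.4 and 15.1 CPM in A1/A2 libraries and 31.3, 22.0, 42.4 and 38.9 CPM in EMP libraries, lower like Itgb3 itself. The partners Itga5 (-0.83 ± 0.44, adjusted p = 0.169), Itga6 (-0.24 ± 0.14, adjusted p = 0.200) and Itgav (-0.22 ± 0.15, adjusted p = 0.278) were not called, and Itgax and Itgb7 were too low to be tested.

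The same list moved both ways in high-Apoa1 wells. Of 38 genes tested 13 were higher and 20 lower in those of the A1/A2 libraries, beside 25.8% and 29.2% of all genes. In those of the EMP libraries 15 were higher and 18 lower, beside 31.1% and 28.1% of all genes. The beta 3 partners parted there. Itga2b was lower like Itgb3 (-2.26 ± 0.47 in the A1/A2 and -2.24 ± 0.24 in EMP libraries), while Itgav was higher (0.51 ± 0.15 and 1.06 ± 0.14). Of 8 ligands 5 were higher and 2 lower in the A1/A2 and 6 higher and 2 lower in EMP libraries. Between Cx3cr1-only and Kit-only A1/A2 wells 1 of 24 tested genes was higher and 0 lower, beside 0.928% and 0.646% of all genes. Between A1/A2 and EMP Kit-only wells 0 of 22 were higher and 1 lower, beside 1.03% and 0.548%. Between EMP Kit-only wells and those with neither 2 of 24 were higher and 8 lower, beside 5.99% and 10.4%.

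Over 27 sums of 1 class in 1 library, the genes whose levels ran most like each of the 7 were ranked by Pearson's r of log2(CPM + 1) among 6118 genes that averaged 20 CPM or more. These sums share libraries and depth, so r describes them and carries no test. For Ptprc they were Itgam (r = 0.938), Cd53 (0.932) and Tyrobp (0.920), and for Itgam they were Ptprc (0.938), Tyrobp (0.925) and Evi2a (0.907). For Itgb2 they were Fcer1g (0.898), Ifitm3 (0.895) and Ncf1 (0.886), and for Itgal they were Ccl6 (0.863), Ighm and Gbp7 (both 0.827). CD45 and CD11b were each other's closest gene by this measure.

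For Itga4 the closest were Cbl (r = 0.858), Sh3kbp1 (0.842) and Ikzf1 (0.809), for Itgb1 they were Rbm15b (0.936), E2f3 (0.931) and Maoa (0.927), and for Itgb3 they were Zyx (0.863), Arhgef2 (0.852) and Ppif (0.821). Among the 7 genes themselves, Ptprc and Itgb2 had r = 0.837 and Ptprc and Itgal 0.773, against 0.465 for Ptprc and Itga4 and -0.320 for Ptprc and Itgb1. Itga4 stood nearer to Itgb2 (0.662) than to Itgb3 (0.325), and Itgal and Itgb3 ran apart (-0.513).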

How the data were processed

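Each deposited table gives, for every gene in every well, an estimated count of transcripts: undoing the correction for 4096 molecular identifiers gave whole numbers in 100% of entries (tolerance 1e-06), and the authors' joint table of A1/A2 wells holds the same values. The submitters' processing notes name BWA 0.6.2-r126 and Seurat without their roles, and the sources used here give no genome build or annotation. The genes, lists and tests were chosen with earlier results of these data known.

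Wells under 1000 transcripts were left out, no doublet caller was run, and wells were summed per library or per class in a library and rounded to whole counts, since wells are not replicates. edgeR 4.0.16 in R 4.3.3 (TMM, filterByExpr, robust quasi-likelihood test, library as a term within libraries) tested all genes together, with Benjamini-Hochberg adjusted p under 0.05 as the threshold. Kit, Cx3cr1 and Apoa1 were not tested where they set the classes. SE is the absolute log2 fold change over the square root of F. CPM are scaled within each comparison, so that levels of 1 class differ slightly between comparisons. Shares were compared by an exact permutation test over 70 assignments of the 8 libraries. Both were tested on simulated data. Genes named beside the 7 were the one with the smallest p in each role of the pathway list, the partner chains, and the 3 genes most like each of the 7; a gene that this rule names is not reported here. Alternatives were DESeq2 1.42.0 (its test or its size factors), no filter, other minima of 500 and 2000 transcripts, other Apoa1 limits, thinned wells, wells or libraries left out, and the library number as a block. Upper limits given where no well held a gene cover counting error only, while the SE also takes in the spread between libraries.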

Additional observations from a re-analysis of the deposited data

Results flagged for a closer look

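Of 77 groups of 4 libraries, 6 held a library far from the other 3, its gap to the nearest past Dixon's 95% limit; chance gives about 1 in 20 such groups. Itgb3 over all wells was highest in EMP library 3, at 42.6 CPM, the next at 31.8 CPM. Ptprc in A1/A2 wells with neither transcript was lowest in library 4, at 78.4 CPM, the next at 154 CPM. Itgam in Cx3cr1-only wells of the A1/A2 libraries was highest in library 3, at 73.0 CPM, the next at 52.7 CPM. Itgal in high-Apoa1 wells of the EMP libraries was lowest in library 2, at 1.01 CPM, the next at 1.80 CPM. Itgb1 in EMP wells with neither transcript was highest in library 1, at 302 CPM, the next at 222 CPM. The share of A1/A2 wells with Itgb1 at 1000 transcripts was highest in library 4, at 19.9%, the next at 16.5%.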

How the results depend on the processing

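Of 691 alternative values of the 7 genes' log2 differences, 659 gave the same call (higher, lower or none), 12 lost the call, 19 gained it and 1 was called with the opposite sign. That was Itgb1 in EMP Kit-only against neither wells, at 0.16 (edgeR adjusted p = 0.0400) with high-Apoa1 wells kept and -0.19 (adjusted p = 0.308, not called) without them. In another comparison, A1/A2 minus EMP libraries over all kept wells, the share of wells with Itgb1 differed by -15.6 points without thinning. At 1000 transcripts that share differed by 0.28 points, with no direction that held (exact permutation p = 0.914). The cause was not tested for any of these.

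Between the libraries, 3651 genes and 5 members were called; 786 genes without deep wells, 103 with wells thinned to 1000 (2 members of 3 tested), and 2596 to 4087 genes with 4 to 5 members when 1 library was left out.

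For Cx3cr1-only against Kit-only wells, 95 genes and 1 member were called, against 41 with DESeq2, 170 with no filter, 468 (4 members) with high-Apoa1 wells kept, 281 with Apoa1 at 5 per 1000, 52 (0 members) at 1 per 1000, 51 (0 members) with sums of 5 or more wells, and 51 to 102 (0 to 1 members) with 1 library left out. It was 0 genes and 0 members without deep wells (15 at an unadjusted p under 0.05) and with wells thinned to 5000 (36), where fewer genes were tested, 443 and 742.

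For high-Apoa1 wells of the A1/A2 libraries, 5788 became 1442 without deep wells, 3002 with Apoa1 at 5 per 1000 and 4985 to 5778 (6 to 7 members) with 1 library left out; of the EMP libraries, 6223 became 1323 (4 members) with Apoa1 at 5 and 5699 to 6559 (7 members) with 1 library left out. The difference between them, 435 genes, became 156 with DESeq2, 680 with Apoa1 at 1, 186 with Apoa1 at 5, and 245 to 344 (0 to 1 members) with 1 library left out.

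For Kit-only wells of the A1/A2 against the EMP libraries, 92 genes and 0 members became 167 (1 member) with DESeq2, 445 (2 members) with no filter, 144 without deep wells, 146 with high-Apoa1 wells kept, 140 with Apoa1 at 1, 20 with wells thinned to 5000 and 17 to 225 (0 to 2 members) with 1 library left out. For EMP Kit-only against neither wells, 1084 genes and 1 member became 474 with DESeq2, 4533 (5 members) with high-Apoa1 wells kept, 4442 (4 members) with Apoa1 at 5, 455 with Apoa1 at 1, 137 (0 members) with wells thinned to 5000 and 683 to 943 (1 member) with 1 library left out; no filter called 2 members.

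Of the shares, 3 did not overlap at 1000 transcripts and 5 at 5000, beside 7.21% and 13.0% of all genes in either direction. It was 3 with any 1 library left out. Without thinning it was 6, but the share over all genes was not counted there. Depth also differs between the groups without thinning (medians of 6153 and 20368 transcripts), so that count is not read as a result. For Itgam in A1/A2 wells with Itgb2, the share of 25.3% became 55.9% without thinning and 4.19% at 1000 transcripts; for Itga4 in EMP wells with Itgb1, 17.3% became 39.9%, 9.28% and, without high-Apoa1 wells, 25.8%.

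The libraries share numbers 1 to 4, but deviations of same-numbered libraries correlated at 0.222, 0.391, -0.025 and 0.220, 1 of them under 0.1, and the labels do not say what a number stands for, so the libraries were not treated as pairs. Of the 4 EMP libraries 3 correlated best with the A1/A2 library of their own number, a hint from the data and not from the design. With the replicate number as a block 4736 genes were called between the libraries, with the same 5 members, and 92 between Kit-only wells, with 2 members, Ptprc at 2.86 (edgeR adjusted p = 1.65e-04) and Itgam at 2.45 (adjusted p = 0.0490).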
